A study of Mus musculus with 3 samples.

Results

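The respiratory chain of the inner mitochondrial membrane is built from subunits of mixed origin, and the genes described here are its nuclear-encoded subunits as read in intrinsic cardiac neurons and their neighbours. Members were chosen by symbol alone: genes whose names start with Ndufa, Ndufb, Ndufc, Ndufs, Ndufv, Uqcr, Cox4i1, Cox5, Cox6, Cox7, Cox8 or Atp5, without Ndufa4l2, the Ndufaf assembly factors and pseudogenes. This gave 80 genes of the 30406 gene identifiers shared by the 3 count matrices, namely 36 of complex I, 8 of complex III, 18 of complex IV (Ndufa4 counted there) and 18 of complex V. Of these, 77 passed the filter on low counts among the neuron classes and 76 the filter across all cell classes, and 75 had a unique molecular identifier (UMI) in at least 10% of the neurons of every library.

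Atrial cells were sorted by green fluorescence, from female and male animals of the strain Baf53b-cre;lox-GFP, where Cre under the promoter of Baf53b (Actl6b), a subunit of the neuronal chromatin remodelling complex, switches on GFP. The design text names the strain Baf53bL10-GFP, the protocol names 10 mice, and how many animals entered each library is not given in the sources used here. Each of the 3 libraries was made with Chromium 3′ V3 chemistry, with 1 from pooled (mixed) ganglia of animals labelled 2 months old, 1 from anterior ganglia labelled 3 months and 1 from posterior ganglia labelled 4 months. The labels name no treatment, and region, labelled age and library cannot be told apart.

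Complex I oxidises NADH, complex III passes electrons from ubiquinol to cytochrome c, complex IV reduces oxygen with them, and complex V, the ATP synthase, uses the resulting proton gradient. The mitochondrial genome codes for a small catalytic core of these enzymes, and the nuclear genes described here supply the remaining catalytic, structural and regulatory subunits. Several complex IV subunits exist as pairs of isoforms, of which Cox6a2, Cox7a1 and Cox8b are known from heart and skeletal muscle. Firing neurons spend much ATP on ion pumping, and most of it comes from this chain.

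A barcode was called a neuron with at least 10000 UMIs and UMIs of Snap25, Prph and Stmn2, genes of neuronal exocytosis, intermediate filaments and microtubules. This gave 1998 mixed, 1315 anterior and 1447 posterior neurons, with median UMI counts of 57062.5, 39854 and 57151. Of neuronal markers the gate did not use, Uchl1 was at 30.6, 24.3 and 25.9 UMIs per 10000 in the mixed, anterior and posterior neurons and at 0.415 to 3.80 in the other cell classes compared, and the nicotinic receptor subunit Chrna3 at 2.21, 2.47 and 2.52 against 0 to 0.486. Neurons were then split by Npy, Ddah1 and Nos1, which code for neuropeptide Y, an enzyme that degrades asymmetric dimethylarginine, and the neuronal nitric oxide synthase. Npy neurons (1504, 1047 and 760 in the mixed, anterior and posterior library) had at least 4 Npy and under 1 Ddah1 UMI per 10000. Ddah1 neurons (336, 103 and 436) had under 4 Npy and at least 1 Ddah1 UMI per 10000. Nos1 neurons (55, 84 and 61) had at least 1 Nos1 UMI per 10000 and at least 2 Nos1 UMIs, whatever their Npy, and were taken out before the other classes. The limits cut continuous ranges: 42, 27 and 86 neurons lay between 2 and 8 Npy UMIs per 10000, and 166, 176 and 282 between 0.5 and 2 Ddah1 UMIs per 10000.

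Promoter sequences were available in the RefSeq table (GRCm38.p6) for 65 of the 80 members, and the 250 bases before the annotated start were searched on both strands. The letters GCGC, any base and TGCGC in a row, the core bound by NRF1, a regulator of respiratory genes, were found in 10 of the 65 members (15.4%) and in 3.86% of all 27025 promoters. The letters CCGGAAG, the core bound by ETS factors such as GABP, were in 10 members (15.4%) and in 7.05% of all promoters. The letters CAGCTG, an E-box read by myogenic factors, were in 6 members (9.23%) and in 12.8% of all promoters. The letters TATAAAA, the TATA box, were in 2 members (3.08%) and in 5.30% of all promoters, and AAGATG followed by GC, the core bound by YY1, in 0 members and 1.59% of all promoters. The promoters were not matched for base composition, and a match of letters is not a binding site. These 4 windows are shown because the differences described below turn on their genes: Cox6a1 and Cox8b for their opposite levels in neurons and cardiomyocytes, and Uqcrh and Cox7a1 for their rise in Ddah1 neurons. They lie at chr5:115348959-115349208 (minus strand, Cox6a1), chr7:140900447-140900696 (minus strand, Cox8b), chr4:116075071-116075320 (minus strand, Uqcrh) and chr7:30183921-30184170 (plus strand, Cox7a1). Capitals mark these 5 motifs on either strand, and no capitals mean that none of these letters occurs in the window.
Cox6a1: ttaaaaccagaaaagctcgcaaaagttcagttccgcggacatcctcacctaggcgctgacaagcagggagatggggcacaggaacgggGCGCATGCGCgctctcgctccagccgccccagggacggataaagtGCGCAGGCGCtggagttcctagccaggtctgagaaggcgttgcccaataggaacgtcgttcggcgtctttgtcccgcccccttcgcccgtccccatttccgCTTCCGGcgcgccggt
Cox8b: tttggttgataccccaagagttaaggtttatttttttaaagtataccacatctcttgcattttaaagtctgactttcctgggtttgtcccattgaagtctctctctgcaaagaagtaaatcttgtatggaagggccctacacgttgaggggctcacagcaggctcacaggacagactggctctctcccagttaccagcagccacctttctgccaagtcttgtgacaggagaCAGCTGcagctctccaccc
Uqcrh: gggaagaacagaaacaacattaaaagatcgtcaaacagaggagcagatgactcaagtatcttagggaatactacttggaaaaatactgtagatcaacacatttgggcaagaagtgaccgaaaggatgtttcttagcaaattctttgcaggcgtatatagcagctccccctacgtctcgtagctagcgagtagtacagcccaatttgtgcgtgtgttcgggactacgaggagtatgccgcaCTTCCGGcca
Cox7a1: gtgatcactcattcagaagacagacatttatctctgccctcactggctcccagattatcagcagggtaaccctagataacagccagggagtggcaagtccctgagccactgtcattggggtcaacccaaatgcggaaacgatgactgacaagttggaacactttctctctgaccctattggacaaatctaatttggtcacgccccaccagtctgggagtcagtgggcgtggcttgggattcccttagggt

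Neurons gave a large and stable share of their transcripts to the chain. The 80 genes together made up 580 UMIs per 10000 in neurons of the mixed, 568 of the anterior and 548 of the posterior library (566 ± 16.2, SD, n = 3 libraries), that is 5.80%, 5.68% and 5.48% of all UMIs. These are shares of a class's UMIs, so a larger share cannot be told apart from less of other RNA. Complex IV contributed 189, 186 and 181 UMIs per 10000, complex I 181, 173 and 163, complex V 158, 155 and 151, and complex III 52.3, 54.3 and 53.7. Each complex therefore kept nearly the same weight in every library. Because a 3′ kit counts 1 tag per molecule, levels of different genes are not divided by length.

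Within each complex the genes differed widely in level. In complex I, Ndufs5 was highest at 9.41, 10.4 and 9.68 UMIs per 10000 (mixed, anterior, posterior), followed by Ndufb8 at 8.51, 8.89 and 8.01, both accessory subunits. Ndufs1, which carries iron-sulphur clusters of the electron path, was at 0.719, 0.662 and 0.750, and Ndufa9, an accessory subunit, at 1.08, 0.623 and 0.687. The highest genes of complex I thus coded for accessory subunits, and a catalytic subunit was among the lowest. In complex III, the small subunits Uqcrh (12.1, 11.1 and 11.9) and Uqcrq (9.02, 11.2 and 11.02) led, and the core proteins Uqcrc1 (2.15, 1.95 and 1.71) and Uqcrc2 (2.34, 1.34 and 1.45) were lowest.

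In complex IV, Cox8a was the highest of all members, at 26.9, 32.1 and 32.2 UMIs per 10000. Ndufa4, once assigned to complex I and now counted as a complex IV subunit, was second by its mean, at 26.3, 22.6 and 20.04. Among members with a UMI in at least 10% of the neurons of every library, the lowest were Cox7a2l, a factor that joins complexes III and IV, at 4.56, 4.29 and 4.54, and the muscle isoform Cox7a1 at 0.0560, 0.0786 and 0.0921. The 5 complex IV members below that detection limit were Cox6a2, Cox8b, Cox6b2, Cox7b2 and Cox8c, of which Cox7b2 and Cox8c gave 4 to 8 and 2 to 3 UMIs in all neurons of a library. In complex V, Atp5h of the peripheral stalk (16.0, 13.8 and 12.9) and Atp5l of the membrane part (13.1, 12.4 and 12.1) led. The rotor subunit Atp5c1 (6.50, 4.26 and 4.27) and the coupling factor Atp5s (0.277, 0.195 and 0.197) were lowest.

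Ddah1 neurons carried more of every complex than Npy neurons. The members' sum was 632, 641 and 608 UMIs per 10000 in Ddah1 neurons of the mixed, anterior and posterior library, against 571, 567 and 522 in Npy neurons, so the groups did not overlap. Within each library the ratio was 1.11-, 1.13- and 1.17-fold. For complex III the ratio was 1.20, 1.22 and 1.29, for complex V 1.118, 1.14 and 1.17, for complex IV 1.09, 1.10 and 1.15, and for complex I 1.09, 1.13 and 1.14. In edgeR's quasi-likelihood test on counts summed per library and class, 41 of the 77 members tested were higher in Ddah1 neurons and 1 was lower at a Benjamini-Hochberg adjusted p under 0.05. Over all 13301 genes tested, 14.3% were higher and 15% lower. The members' median log2 fold change was 0.15, against -0.00 over all genes. By complex, 5 of 8 members of complex III, 11 of 18 of complex V, 9 of 15 of complex IV and 16 of 36 of complex I rose. The direction was the same in all 3 libraries for 69 of the 77 members, higher for 68 and lower for 1. The share of all genes with 1 direction is not given, so this count describes the members alone.

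Uqcrh, the hinge protein of complex III that helps cytochrome c dock, was at 14.7, 14.1 and 14.8 UMIs per 10000 in Ddah1 neurons and at 11.6, 10.97 and 10.7 in Npy neurons. Every Ddah1 value lay above every Npy value, and the log2 fold change was 0.37 ± 0.04 (SE, n = 3 libraries, edgeR adjusted p = 2.16e-06). Uqcrq, a small subunit of complex III, was at 11.1, 13.9 and 13.4 in Ddah1 and at 8.58, 11.05 and 9.80 in Npy neurons (0.37 ± 0.04, edgeR adjusted p = 4.57e-06). Every library showed the difference, and the mixed Ddah1 value lay just above the anterior Npy value. Atp5md, a small subunit of the ATP synthase dimer, was at 9.46, 12.7 and 12.2 against 7.52, 10.2 and 9.37 (0.33 ± 0.04, edgeR adjusted p = 5.82e-06). Uqcr10, another small complex III subunit, was at 9.43, 11.7 and 11.3 against 7.39, 9.51 and 8.69 (0.33 ± 0.04, edgeR adjusted p = 1.96e-05). For Atp5md and Uqcr10 the mixed Ddah1 value lay below the anterior Npy value, and the difference was seen within each library.

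Members without a call included the core proteins of complex III, Uqcrc1 (log2 fold change 0.02 ± 0.05) and Uqcrc2 (0.02 ± 0.07), while Uqcrfs1, the Rieske iron-sulphur protein of the same complex, rose by 0.18 ± 0.05 (edgeR adjusted p = 0.00973). Ndufa4 was at -0.06 ± 0.04 (edgeR adjusted p = 0.334), and Atp5g2, 1 of the 3 genes for the ring subunit of ATP synthase, at 0.00 ± 0.04 (edgeR adjusted p = 0.991). The catalytic complex I subunit Ndufv1, which binds NADH, was at -0.04 ± 0.06 (edgeR adjusted p = 0.692).

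**Figure D1:**
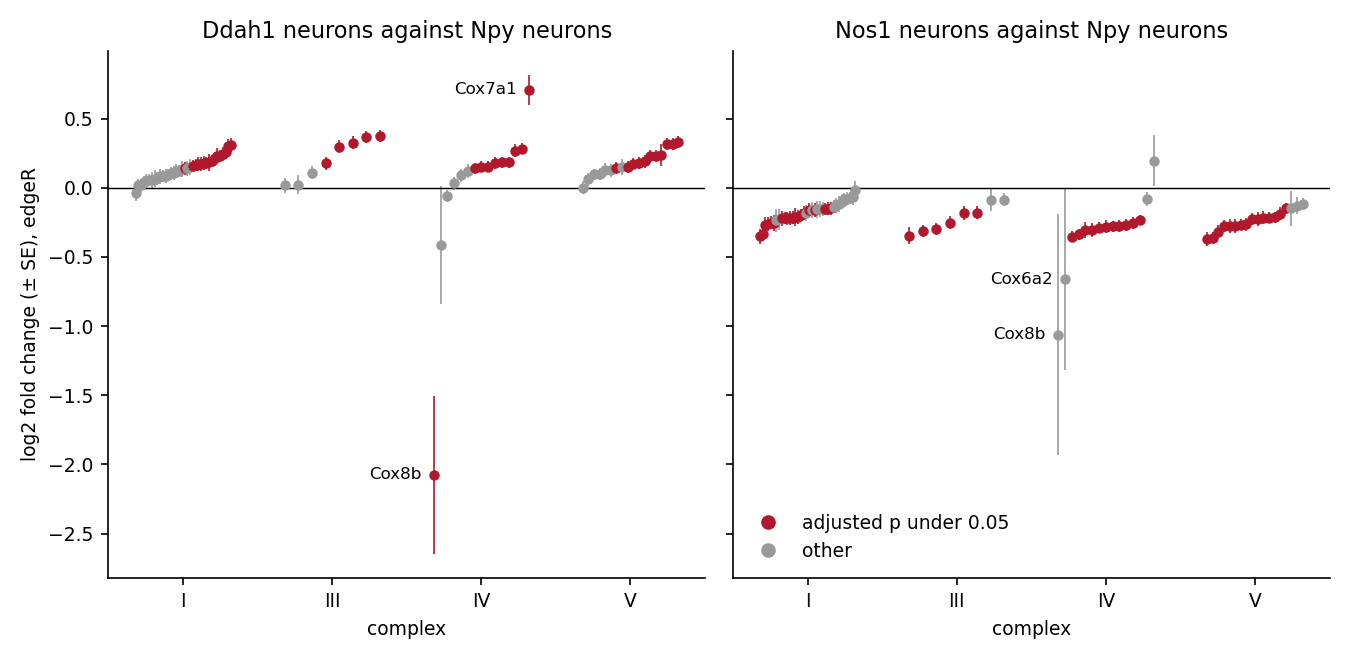
Log2 fold change (± SE, edgeR, n = 3 libraries) of the 77 tested members in Ddah1 neurons (left) and Nos1 neurons (right) against Npy neurons, by complex, with members at an adjusted p under 0.05 in red. Most points lie between 0 and 0.37 on the left and between -0.37 and 0 on the right, and the complex IV isoforms Cox7a1, Cox8b and Cox6a2 stand apart with wider errors.

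Nos1 neurons carried less of the chain than Npy neurons. Their sum was 499, 480 and 480 UMIs per 10000 in the mixed, anterior and posterior library, below all 3 Npy values (571, 567 and 522), and 0.874, 0.848 and 0.920 of the Npy value within a library. In edgeR's quasi-likelihood test 52 of the 77 members were lower and 0 higher at an adjusted p under 0.05, and 0 were higher at an unadjusted p under 0.05 or in DESeq2. Over all 13301 genes, 6.69% were lower and 6.23% higher. The members' median log2 fold change was -0.22, against -0.03 over all genes. The fall covered 15 of 18 members of complex V, 11 of 15 of complex IV, 6 of 8 of complex III and 20 of 36 of complex I. The comparisons of Ddah1 and of Nos1 neurons share the same Npy neurons, so their values are given side by side and were not set against each other. In 62 of the 77 members all 3 libraries were lower, and 15 differed in sign between libraries, again without a share over all genes.

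The 5 members with the most marked fall came from all 4 complexes. Atp5mpl, a small subunit of the ATP synthase membrane part, was at 4.71, 5.34 and 6.20 UMIs per 10000 in Nos1 neurons and at 5.61, 7.36 and 7.36 in Npy neurons (log2 fold change -0.37 ± 0.05, SE, n = 3 libraries, edgeR adjusted p = 6.02e-05). Atp5g1, another gene for the ring subunit, was at 9.69, 9.81 and 9.18 against 12.0, 12.9 and 10.9 (-0.37 ± 0.04, edgeR adjusted p = 1.09e-05). Cox7c, a small complex IV subunit present in all tissues, was at 14.6, 16.8 and 17.4 against 18.1, 22.0 and 20.2 (-0.36 ± 0.04, edgeR adjusted p = 9.16e-06). The Nos1 and Npy values of Atp5g1 and Cox7c did not overlap, while for Atp5mpl the posterior Nos1 value exceeded the mixed Npy value. Ndufa10, an accessory subunit of complex I, was at 2.74, 1.87 and 1.86 against 3.34, 2.37 and 2.24 (-0.35 ± 0.06, edgeR adjusted p = 0.000301). Uqcrc1, a core protein of complex III, was at 1.66, 1.54 and 1.48 against 2.16, 1.95 and 1.67 (-0.35 ± 0.06, edgeR adjusted p = 0.000765). For Uqcrc1 the groups nearly met (1.66 against 1.67), and for Ndufa10 the mixed Nos1 value exceeded the anterior and posterior Npy values.

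The library term carried much of this precision. Without it edgeR called 0 members in either comparison, with 5 higher at an unadjusted p under 0.05 for Ddah1 neurons and 6 lower for Nos1 neurons, while DESeq2 with the term called 42 and 47. Without the posterior library 24 members were called higher in Ddah1 neurons, and without the anterior library 24 were called lower in Nos1 neurons.

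Neurons varied in the share they gave to these genes, and this moved with nuclear RNA. The median per neuron was 563 UMIs per 10000 in the mixed library with a 10th to 90th percentile range of 434 to 684. The anterior median was 575 (range 237 to 719) and the posterior 549 (range 192 to 740), so the low tail was wider in these libraries. In neurons with under 50 Malat1 UMIs per 10000, a transcript retained in the nucleus, the median was 640, 635 and 640 in the 3 libraries. In those with at least 500 it was 74.1 (33 neurons), 159 (103) and 150 (159). The latter also had fewer UMIs in median (16537, 14271 and 20031) and only 1.21%, 1.94% and 1.498% of UMIs from ribosomal protein genes, against 9.54%, 12.8% and 13.6% in neurons low in Malat1. Their median share of mitochondrial UMIs was 17.5%, 6.91% and 6.16%, against 4.12%, 2.39% and 2.16%. Across neurons Spearman's rho of the share with Malat1 was -0.60, -0.71 and -0.77 (n = 1998, 1315 and 1447 neurons, values that share library and depth). With the mitochondrial percent of a neuron it was -0.34, -0.30 and -0.40, and the part of barcode quality in the low tail was not tested.

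Malat1 also moved with the classes. Its level was 133, 111 and 148 UMIs per 10000 in Npy, 130, 83.0 and 101 in Ddah1 and 161, 142 and 149 in Nos1 neurons. In neurons under 50 Malat1 UMIs per 10000 the median share of the members was 704, 704 and 696 in Ddah1, 633, 636 and 614 in Npy and 538 (5 neurons), 527 and 509 in Nos1 neurons. From 50 to 200 it was 632, 612 and 570, then 567, 545 and 505, then 486, 457 and 449. The order of the classes was thus the same in both ranges and in all 3 libraries. From 200 to 500 the order held in the mixed and anterior library, while in the posterior library Nos1 neurons (432, 13 neurons) lay above Npy neurons (392). With at least 500, Nos1 neurons again lay above Npy neurons, at 175 (9 neurons) against 154 in the anterior and 169 (8 neurons) against 146 in the posterior library, and the mixed library had 0 such Nos1 neurons. Ddah1 neurons lay above Npy neurons there, at 179 (2 neurons) against 90.6, 181 (2 neurons) against 154, and 188 (21 neurons) against 146. With the test restricted to neurons under 200 Malat1 UMIs per 10000, a setting chosen after seeing the data, 23 members were higher in Ddah1 neurons (median log2 fold change 0.11) and 48 lower in Nos1 neurons (-0.23).

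Depth also differed between these classes. Nos1 neurons had median UMI counts of 45938, 33729.5 and 50422 (mixed, anterior, posterior), below those of Npy neurons (56764.5, 40140 and 58034.5). Ddah1 neurons had 59223.5, 41297 and 58843, slightly above Npy neurons in each library. Across all neurons of a library the members' share rose with UMI count (Spearman's rho 0.56, 0.43 and 0.41, n = 1998, 1315 and 1447 neurons, values that share library and nuclear RNA). With neurons of at least 20000 UMIs alone, 40 members were higher in Ddah1 neurons and 47 lower in Nos1 neurons. The part of depth in either difference was not further tested.

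**Figure D2:**
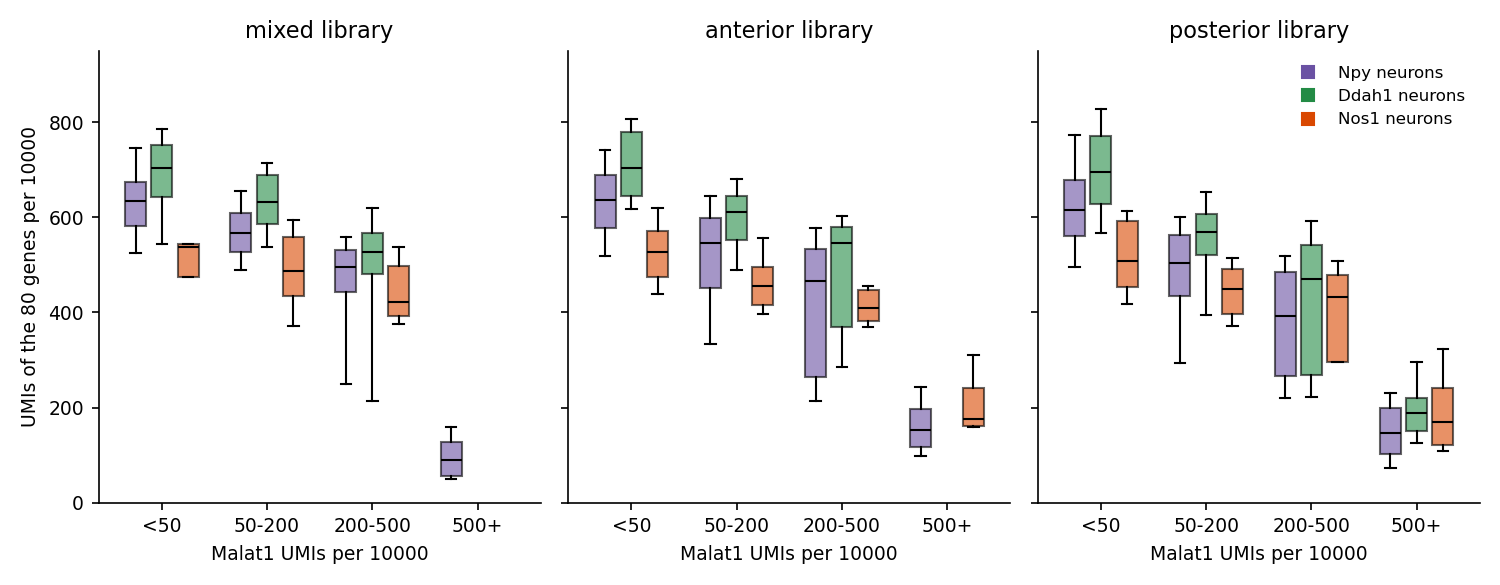
UMIs of the 80 genes per 10000 in single neurons by Malat1 level and class, 1 panel a library (box, quartiles; line, median; whiskers, 10th and 90th percentile; groups under 5 neurons are not drawn). The drawn class medians are 509 to 704 in neurons under 50 Malat1 UMIs per 10000 and 90.6 to 188 in those with at least 500. Ddah1 neurons lie above and Nos1 neurons below Npy neurons in both lower ranges.

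Against non-neuronal cells, neurons stood high. Other cells of at least 1000 UMIs were gated by at least 3 markers of 1 class, and their members' sums were 202, 172 and 200 UMIs per 10000 in satellite glia or Schwann cells, 185, 190 and 192 in fibroblasts, and 217, 226 and 213 in macrophages (mixed, anterior, posterior). Endothelial cells had 202, 212 and 218, and smooth muscle cells or pericytes 292, 315 and 276. Lymphocytes had 163 and 207 and epithelial cells 262 and 222 in the mixed and posterior library, their anterior groups being under 15 cells. No neuronal value overlapped with these. Neuronal RNA was present in them at a low level, with Npy at 1.56, 2.19 and 2.15 UMIs per 10000 in glia against 40.4, 43.1 and 29.6 in neurons. These groups were also far shallower, with median UMI counts of 2207 to 7415 against 39854 to 57151 in neurons. Glia had 629 to 964 Malat1 UMIs per 10000, against 109 to 133 in neurons. Among neurons the members' share moved with both depth and Malat1, and their part in the differences between cell classes was not tested.

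In edgeR's quasi-likelihood test over 8251 genes, 72 of 76 members were higher in neurons than in satellite glia or Schwann cells and 1 lower, where 30.7% of all genes were higher and 30.8% lower. Against fibroblasts 72 were higher and 1 lower (29.8% and 31.8% of all genes), and against endothelial cells 73 and 0 (26.7% and 24.3%). Against macrophages the counts were 69 and 0 (29.9% and 24.6%), against lymphocytes 63 and 0 (25% and 17.4%), against epithelial cells 61 and 0 (23% and 20.2%), and against smooth muscle cells or pericytes 56 and 0 (27.3% and 25.3%). In the last 5 of these edgeR had 0 members lower at an unadjusted p under 0.05 as well, and DESeq2 called 0 lower except for 1 against lymphocytes. The members' median log2 fold change ran from 0.91 against smooth muscle cells or pericytes to 1.68 against endothelial cells, where all genes had medians of 0.19 and 0.23.

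Cox5a, a structural subunit of complex IV, led 4 of these comparisons. It was at 18.1, 12.1 and 10.7 UMIs per 10000 in neurons and at 2.90, 1.71 and 2.58 in glia (log2 fold change 2.65 ± 0.30, SE, edgeR adjusted p = 1.1e-07), and at 2.23, 1.81 and 2.15 in fibroblasts (2.72 ± 0.30, edgeR adjusted p = 6.85e-08). Against smooth muscle cells or pericytes (3.82, 3.16 and 3.12) the log2 fold change was 2.11 ± 0.30. Each neuronal value lay above every value of these classes. Next came Atp5md against glia (2.39) and fibroblasts (2.46), and Ndufab1, the mitochondrial acyl carrier protein that is also a complex I subunit, against glia (2.31), macrophages (2.28) and lymphocytes (2.62). Atp5k, another dimer subunit, followed against fibroblasts (2.25). Ndufa11 led against macrophages (2.43), with Ndufs5 (2.24) behind, and Ndufb6 (2.79) and Ndufb2 (2.48) stood beside Ndufab1 against lymphocytes. Ndufb6 (2.70) and Atp5g1 (2.59) led against endothelial cells, Cox5a (2.33), Ndufa4 (1.98) and Atp5g3 (1.93) against epithelial cells, and Cox6b1 (1.89) and Atp5mpl (1.87) followed Cox5a against smooth muscle cells or pericytes. All of these passed the test.

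**Figure D3:**
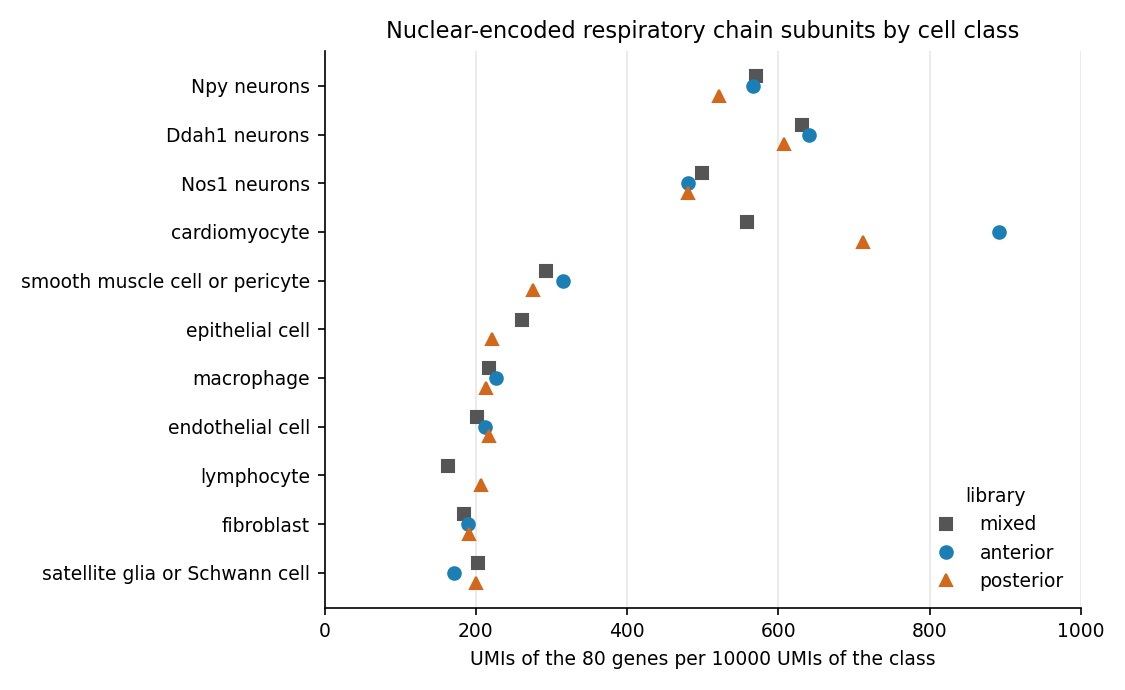
Summed UMIs of the 80 genes per 10000 UMIs of each cell class and library (1 point a library, groups under 15 cells not drawn). The neuron classes lie between 480 and 641, cardiomyocytes between 558 and 892, and every other class between 163 and 315.

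Cardiomyocytes were the exception. Their sum was 558, 892 and 712 UMIs per 10000 in 45, 49 and 36 cells, overlapping with the neurons. These cells were rich in transcripts of the mitochondrial genome, at 54.3%, 22.2% and 21.6% of UMIs against 4.24%, 2.54% and 2.64% in neurons, and 43 of the 45 mixed cells were above 20% (18 and 19 in the anterior and posterior library). Haemoglobin and erythroid markers summed to 59.6 UMIs per 10000 in the anterior cardiomyocytes. Taken per 10000 UMIs outside mitochondrial genes, a scale chosen after seeing the data, the sums were 1220, 1146 and 908 in cardiomyocytes and 606, 583 and 563 in neurons, and did not overlap. In the edgeR test 53 of 76 members were lower in neurons than in cardiomyocytes and 2 higher, where 18.2% of all genes were lower and 23.4% higher. The members' median log2 fold change was -0.87, against 0.37 over all genes. With library totals in place of scaling by the trimmed mean of M values (TMM) 25 were lower and 7 higher, with a members' median of -0.29 against 0.95 over all genes. Without the anterior library 25 were lower. The 53 included 8 of 8 members of complex III, 16 of 17 of complex V, 20 of 36 of complex I and 9 of 15 of complex IV.

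The isoform pairs of complex IV separated the 2 cell types. Cox6a1, the isoform found outside muscle, was at 4.97, 6.13 and 6.96 UMIs per 10000 in neurons and at 0.741, 0.923 and 0.951 in cardiomyocytes (log2 fold change 2.20 ± 0.27, edgeR adjusted p = 1.2e-06). Its muscle partner Cox6a2 was at 0.00283, 0.0399 and 0.0560 in neurons and at 23.2, 49.4 and 31.0 in cardiomyocytes (-11.35 ± 0.77, edgeR adjusted p = 1.2e-10). Cox6a2 made up 96.9%, 98.2% and 97.0% of the pair's UMIs in cardiomyocytes (exact 95% intervals 94.95 to 98.3, 97.2 to 98.9 and 94.9 to 98.5, counting error only) and 0.0570%, 0.646% and 0.798% in neurons. The exchange of this pair was therefore almost complete in both directions.

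Cox8a, the isoform present in most tissues, was at 26.9, 32.1 and 32.2 in neurons and at 6.03, 9.91 and 8.95 in cardiomyocytes (1.32 ± 0.21, edgeR adjusted p = 3.95e-05). Cox8b was at 1.48, 4.52 and 5.78 in cardiomyocytes and gave 3, 31 and 89 UMIs in all neurons of a library (-10.18 ± 0.52, edgeR adjusted p = 1.06e-11). It made up 19.7%, 31.3% and 39.2% of its pair in cardiomyocytes and 0.000956%, 0.0186% and 0.0343% in neurons. Cox7a1 made up 28.0%, 35.6% and 46.2% of its pair with Cox7a2 in cardiomyocytes and 0.360%, 0.520% and 0.600% in neurons (-7.23 ± 0.28, edgeR adjusted p = 3.55e-13). Cox6a1 and Cox8a were the 2 members called higher in neurons. In these atrial cells Cox7a2 (11.4, 16.9 and 11.8) and Cox8a remained the major forms of their pairs, and only Cox6a was nearly all muscle isoform.

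**Figure D4:**
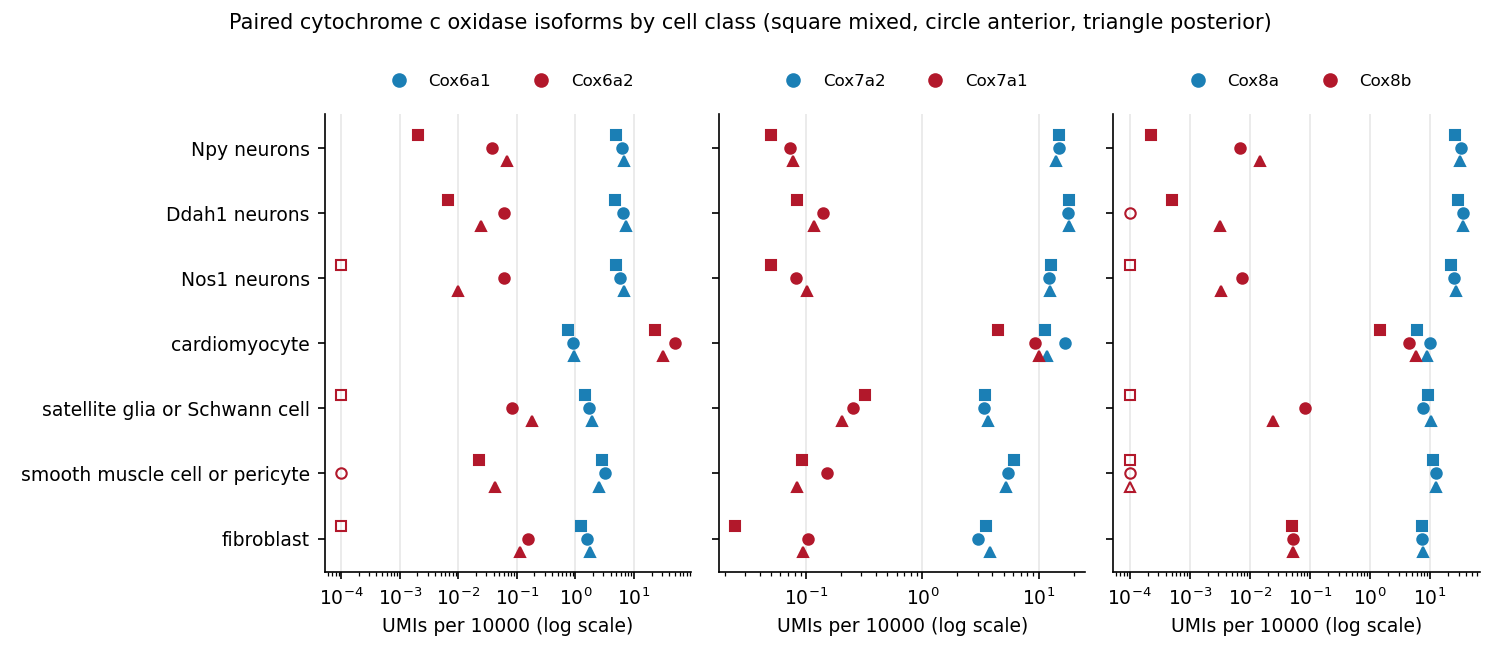
UMIs per 10000 (log scale) of the 3 isoform pairs of complex IV by cell class, blue for the common and red for the muscle isoform (square mixed, circle anterior, triangle posterior library; an open symbol at the left edge is 0 UMIs). The red symbols of cardiomyocytes lie at 1.48 to 49.4 and those of neurons at or under 0.141.

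Muscle isoform transcripts in neurons were few. The level of Myh6, the atrial myosin heavy chain, was 0.00112, 0.0480 and 0.0458 UMIs per 10000 in mixed, anterior and posterior neurons, and the summed cardiomyocyte marker list was at 0.276, 0.700 and 0.735. Cox6a2, Cox8b and Cox7a1 were likewise lowest in mixed neurons, and the part of cardiomyocyte RNA in this was not tested. Per Cox7a1 UMI, cardiomyocytes had 5.22, 5.30 and 3.05 Cox6a2 UMIs and 11.3, 11.9 and 11.6 Myh6 UMIs. Neurons had 0.0506, 0.507 and 0.608 Cox6a2 and 0.0199, 0.610 and 0.497 Myh6 UMIs per Cox7a1 UMI. Both ratios were lower in neurons than in cardiomyocytes in every library. They were lowest in mixed neurons, on 652 Cox7a1, 33 Cox6a2 and 13 Myh6 UMIs. The source of the Cox7a1 UMIs in neurons was not tested.

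Cox7a1 had the largest log2 fold change among the members called higher in Ddah1 neurons. It lies at chromosome 7, 30184144 to 30186078 (mm10, plus strand). Its level was 0.0833, 0.141 and 0.117 UMIs per 10000 in Ddah1 neurons (164, 59 and 294 UMIs) and 0.0499, 0.0723 and 0.0770 in Npy neurons (439, 301 and 327 UMIs). The groups did not overlap, and the log2 fold change was 0.71 ± 0.11 (SE, n = 3 libraries, edgeR adjusted p = 6.77e-05). In Nos1 neurons it was at 0.0497, 0.0824 and 0.102, with 13 to 31 UMIs a library (0.19 ± 0.19, edgeR adjusted p = 0.581). Without neurons that held 3 or more cardiomyocyte markers, a setting chosen after seeing the data, Ddah1 neurons had 0.0830, 0.126 and 0.119 and Npy neurons 0.0506, 0.0682 and 0.0694.

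The neuronal level of Cox7a1 was nevertheless low. Smooth muscle cells or pericytes had 0.0921, 0.1505 and 0.0844 and fibroblasts 0.0248, 0.105 and 0.0944 UMIs per 10000, on 1 to 11 UMIs a library. Satellite glia or Schwann cells had 0.319, 0.253 and 0.203 on 11, 12 and 17 UMIs, above the neurons in each library (log2 fold change of neurons against glia -1.59 ± 0.29, edgeR adjusted p = 9.47e-05). In mixed glia there were 11 Cox7a1 UMIs beside 0 of Cox6a2, Cox8b and Myh6, while anterior and posterior glia held 12 and 15 Myh6 UMIs. In endothelial cells it had 0 UMIs in every library, and although the test called it there, the fitted fold change is no bound and the call was lost in DESeq2 (adjusted p = 0.126).

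Cox8b was the 1 member called lower in Ddah1 neurons (-2.07 ± 0.57, edgeR adjusted p = 0.0107). It rested on 1, 0 and 8 UMIs in Ddah1 neurons and 2, 29 and 62 in Npy neurons, of which 34 of the posterior 62 came from 5 neurons. The summed cardiomyocyte markers were at 0.251, 0.658 and 0.523 in Ddah1 and at 0.271, 0.686 and 0.825 in Npy neurons. DESeq2 did not call it (adjusted p = 0.238), and without neurons holding 3 or more cardiomyocyte markers the posterior levels were 0.00326 in Ddah1 and 0.00392 in Npy neurons. Cox8b was also the 1 member lower in neurons than in fibroblasts (-3.18 ± 0.93, edgeR adjusted p = 0.00588), on 2, 2 and 6 fibroblast UMIs. Cox6a2 did not pass in Ddah1 (-0.42 ± 0.43, edgeR adjusted p = 0.523) or Nos1 neurons (-0.66 ± 0.66, edgeR adjusted p = 0.601).

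Cox4i2 and Ndufa4l2, hypoxia-linked alternatives to Cox4i1 and Ndufa4 that the symbol rule leaves out, were low in neurons. Cox4i2 was at 1.40, 1.73 and 0.971 UMIs per 10000 in smooth muscle cells or pericytes and at 0.00953, 0.00829 and 0.0359 in neurons. Ndufa4l2 was at 7.97, 4.69 and 0.0769 in endothelial cells and at 0.0146, 0.00809 and 0.0810 in neurons, so the posterior values of these classes were close. Posterior endothelial cells held 1 UMI of each gene. Neither gene was limited to vascular cells: Cox4i2 was at 0.232, 0.758 and 0.311 in satellite glia or Schwann cells and at 0.670, 0.340 and 0.137 in fibroblasts. Ndufa4l2 was at 0, 1.22 and 0.598 in glia and at 1.09, 0.654 and 0.670 in fibroblasts, and posterior cardiomyocytes had 1.90 Cox4i2 and 4.67 Ndufa4l2, with 0 UMIs of either in the mixed and anterior cardiomyocytes. Both genes were lower in neurons than in smooth muscle cells or pericytes and than in endothelial cells in the edgeR test. Of the 20 tissue isoform genes 16 were tested, and all of these but Cox4i2 and Ndufa4l2 are members whose calls were already counted above. In Ddah1 neurons 8 were higher and 3 lower than in Npy neurons (14.3% and 15% of all genes), the 3 being Ndufa4l2, Cox8b and Cox4i2. In Nos1 neurons 0 were higher and 11 lower (6.23% and 6.69% of all genes), Cox4i2 and Ndufa4l2 among them. Cox4i2 rested on 103, 28 and 183 UMIs in Npy, 8, 3 and 30 in Ddah1 and 0, 1 and 0 in Nos1 neurons. Ndufa4l2 rested on 164, 37 and 402 in Npy, 2, 1 and 54 in Ddah1 and 3, 3 and 1 in Nos1 neurons, so no fold is given for either. In DESeq2 0 of the 3 were called lower in Ddah1 neurons, and 0 were higher and 10 lower in Nos1 neurons. Markers of smooth muscle cells or pericytes were lower in Ddah1 (0.0244, 0.0215 and 0.0588) than in Npy neurons (0.120, 0.0723 and 0.259), and their part in Cox4i2 and Ndufa4l2 was not tested.

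Other genes of energy metabolism gave a similar picture for the chain's direct partners. The counts below stand against 14.3% of all genes higher and 15% lower in Ddah1 neurons, and 6.23% and 6.69% in Nos1 neurons. Of the 13 subunits encoded by mitochondrial DNA, 11 were higher and 0 lower in Ddah1 than in Npy neurons (median log2 fold change 0.25), led by mt-Nd3 (0.32) and mt-Nd2 (0.31). In Nos1 neurons 9 were lower and 0 higher (-0.22), led by mt-Atp6 (-0.31) and mt-Cytb (-0.29). A fixed list of 6 genes held complex II, cytochrome c and Cyc1, which codes for cytochrome c1, a catalytic subunit of complex III that the symbol rule does not take in. Of these 6, 4 were higher in Ddah1 neurons, led by Cycs (0.42), cytochrome c itself, and Cyc1 (0.28). In Nos1 neurons 4 of the 6 were lower, led by Cyc1 (-0.32) and Cycs (-0.27). The tricarboxylic acid cycle list of 16 genes held enzymes of that cycle, which supplies NADH, and the pyruvate dehydrogenase genes Pdha1, Pdhb and Dlat. Of the 16 genes 10 rose in Ddah1 neurons, led by Idh3a (0.30) and Suclg1 (0.22), and 4 fell in Nos1 neurons, among them Pdhb (-0.30). In each of these lists 0 genes moved the other way in edgeR at an unadjusted p under 0.05, or in DESeq2. All medians stand against -0.00 and -0.03 over all genes.

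In Ddah1 neurons smaller parts of the other lists were called, to be read against 14.3% of all genes higher and 15% lower. In Nos1 neurons 6.23% of all genes were higher and 6.69% lower. There the glycolysis and carrier lists had larger parts lower than the tricarboxylic acid cycle list (4 of 16). Median log2 fold changes in Nos1 neurons were -0.16 for glycolysis, -0.12 for carriers, -0.14 for assembly factors and -0.04 for biogenesis regulators. That of the tricarboxylic acid cycle list was -0.17. Of 39 assembly factors 12 rose in Ddah1 neurons, led by Ndufaf4 (0.44) and Ndufaf5 (0.43), and 1, Ndufaf2 (-0.28), fell, while in Nos1 neurons 6 fell, led by Atpaf2 (-1.02), which helps build the F1 part of ATP synthase, and Ndufaf5 (-0.41). Of 14 regulators of mitochondrial biogenesis 5 rose in Ddah1 neurons, led by the nuclear receptor Esrrg (0.76) and the coactivator Ppargc1b (0.36), and the list's median was -0.01, but DESeq2 called 1 of the 14. In Nos1 neurons 0 of the 14 passed in edgeR (1 lower at an unadjusted p under 0.05) and 0 in DESeq2. Of 15 glycolytic genes tested 6 rose in Ddah1 neurons, led by the lactate dehydrogenases Ldhb (0.55) and Ldha (0.32), and 1, Pfkl (-0.40), fell. In Nos1 neurons 6 fell, led by Pgk1 (-0.38) and Eno2 (-0.33). Among 11 carriers and related genes tested, 4 rose in Ddah1 neurons, led by the uncoupling protein Ucp2 (0.87) and mitochondrial creatine kinase Ckmt1 (0.40), and 1, Slc25a27 (-0.23), fell, while 4 fell in Nos1 neurons, led by Ckb (-0.43) and the ADP/ATP carrier Slc25a5 (-0.32).

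The balance of nuclear to mitochondrial transcripts differed between cell types. The summed level of the 13 mitochondrially encoded subunits was 424, 254 and 264 UMIs per 10000 in neurons and 724, 416 and 419 in satellite glia or Schwann cells. The ratio of the 80 nuclear genes to these 13 was 1.37, 2.24 and 2.08 in neurons, 0.279, 0.414 and 0.478 in glia, and 0.103, 0.401 and 0.330 in cardiomyocytes. It was 0.837, 1.53 and 1.53 in fibroblasts, 0.641, 1.32 and 1.01 in macrophages, and 0.534, 1.29 and 1.18 in endothelial cells. In smooth muscle cells or pericytes it was 0.617, 1.61 and 0.965. Lymphocytes had 0.140 and 0.942 and epithelial cells 0.750 and 1.02 in the mixed and posterior library. Neurons lay above each of these classes in every library given. Against glia, 7 of the 13 mitochondrial genes were lower in neurons and 0 higher in edgeR (0 also at an unadjusted p under 0.05), and DESeq2 called 12 lower and 0 higher, while 72 of 76 nuclear members were higher. Over all genes edgeR called 30.8% lower and 30.7% higher there. Other classes differed in direction. Against fibroblasts 9 of the 13 were higher in neurons and 0 lower (29.8% and 31.8% of all genes), though DESeq2 called 3 higher. Against endothelial cells 3 were higher, against macrophages 2 and against epithelial cells 2, each with 0 lower (all genes higher 26.7%, 29.9% and 23%). Against lymphocytes 7 were lower and against smooth muscle cells or pericytes 2, each with 0 higher (all genes lower 17.4% and 25.3%). Glia also had more Malat1 (629, 964 and 786 UMIs per 10000) and a lower share of ribosomal protein genes (4.51% to 5.51%) than neurons, and the part of these in the ratio was not tested. Against cardiomyocytes all 13 were lower in neurons, with a median log2 fold change of -4.17, led by mt-Nd5 (-4.81) and mt-Nd2 (-4.29). In the same comparison 4 of the 6 genes of complex II, cytochrome c and cytochrome c1 were lower, led by Sdha (-1.99) and Sdhc (-1.68), and 15 of 16 of the tricarboxylic acid cycle list, led by Suclg2 (-3.05). Over all genes 18.2% were lower and 23.4% higher than in cardiomyocytes, and the calls of this comparison moved with the scaling.

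Anterior and posterior neurons gave nearly the same levels. With 1 library a region there is no test, and ratios carry exact conditional Poisson intervals for counting error only. Of 74 members with at least 0.1 UMIs per 10000 in either library, 0 differed by over 1.5-fold, where 0.218% of 8244 genes were over 1.5-fold higher in the anterior library and 1.43% in the posterior one. Few genes of any kind passed that limit, so the count of 0 does not set the members apart. The log2 ratios ran from -0.22 to 0.20 with a median of 0.04, against -0.08 over all genes. Lowest were Atp5a1, the alpha subunit of ATP synthase (4.50 anterior, 5.23 posterior, ratio 0.861, interval 0.847 to 0.875), Ndufa6 (2.29 and 2.62, ratio 0.876) and Cox6a1 (6.13 and 6.96, ratio 0.881). Highest were Atp5d, the delta subunit (8.39 and 7.33, ratio 1.15, interval 1.13 to 1.16), Atp5g2 (9.05 and 7.91, ratio 1.14) and Uqcrc1 (1.95 and 1.71, ratio 1.14). Counting intervals excluded 1 for 58 of the 74 members, 42 above and 16 below, so the depth resolved differences of a few percent. No share over all genes is given for these intervals, so their number is not a trait of the members. Within Npy neurons alone the members' median log2 ratio was 0.12. The 2 libraries differed in class make-up, with 1047 Npy and 103 Ddah1 neurons in the anterior and 760 and 436 in the posterior library. By class, the members' sum was 567 anterior and 522 posterior UMIs per 10000 in Npy neurons and 641 and 608 in Ddah1 neurons. In Nos1 neurons it was 480 in both. The part of class make-up in the ratios over all neurons was not tested.

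**Figure D5:**
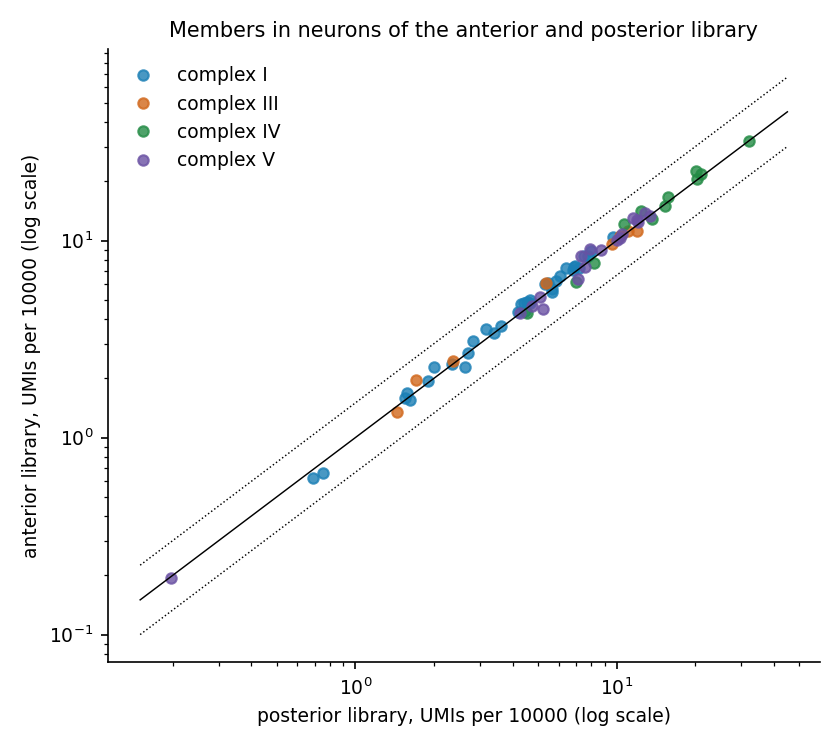
UMIs per 10000 of 74 members in neurons of the anterior (vertical) and posterior (horizontal) library, log scales, coloured by complex; the solid line is equality and the dotted lines 1.5-fold. All points lie between the dotted lines, with ratios from 0.861 to 1.15.

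The mixed library stood further apart than the regions from each other. Its members ran from -0.90 (Ndufa3: 1.79 mixed, 3.54 anterior and 3.16 posterior) to 0.84 (Atp5f1: 8.45, 4.65 and 4.74) in log2 ratio to the mean of the regions (SD 0.38), against an SD of 0.10 between the regions. Of the 74 members 9 were past 1.5-fold and 5 lay between the regional values. No share or SD over all genes is given for this contrast, so it cannot be read as particular to the members. Its matrix was written by another Cell Ranger version with another feature list, and the part of this in the difference was not tested.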

How the data were processed

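Single-cell counts of 3 libraries were analysed. The deposited matrices hold raw UMI counts per gene and barcode. Cell Ranger 3.1.0 made the mixed matrix and 6.1.2 the regional ones, per the file headers, while the submitters' processing notes name Cell Ranger 7.1.0, Seurat 4.4.2 and mm10. Totals were 119825307 (mixed), 55329380 (anterior) and 86391988 (posterior) UMIs in 2829, 2256 and 3276 barcodes, and 2 or 3 barcodes were shared between any pair of libraries.

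Genes were joined by identifier, which adds Atp5s, Atp5md and Atp5mpl where a matrix uses an older or newer symbol. A second Atp5o row of the mixed matrix, with 1 UMI, was not used. Neurons and their classes were gated as the report describes. Other cells needed at least 1000 UMIs, at least 3 markers of a class, more than of any other class, and under 20 UMIs per 10000 of the gate genes, a limit settled after seeing the data. Groups under 15 cells were left out of the fits. Scrublet marked 12, 5 and 9 barcodes, too few to have worked, so none was removed, and an alternative removed the 3% with the highest scores.

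Counts were summed per library and class and tested with edgeR 4.0.16 (R 4.3.3; filterByExpr, TMM, library as a block, quasi-likelihood test, Benjamini-Hochberg over all genes tested, threshold 0.05). The neuron fit had 9 sums, 4 residual degrees of freedom and a biological coefficient of variation of 0.0541, the other fit 25 sums, 14 and 0.254. Errors of fold changes are approximate SE, taken as the absolute log2 fold change divided by the square root of the quasi-likelihood F statistic. The block pairs classes sorted and sequenced together in 1 library. The replicate is the library, and p-values measure the spread between 3 libraries that no source ties to separate animals. DESeq2 1.42.0 was an alternative. The scripts were tested on simulated data. Log2 ratios of single genes between regions, and between classes within a library, use a pseudocount of 0.01 UMIs per 10000. Shares have exact Clopper-Pearson 95% intervals, and all intervals cover counting error only.

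Members and gene lists were chosen with earlier results of these data known. Named genes are the 2 highest and 2 lowest of each complex in neurons, the 5 called members with the largest log2 fold change in each direction per neuron class comparison and 3 per other class, the 3 most extreme members by region, the tissue isoforms, and up to 2 called genes in each direction of every other list. Of the last, 1 gene is not reported here. The few members named as not called, and the genes naming marker RNA, were chosen after their values were seen. Coordinates are from GENCODE vM21 (GRCm38), and promoters from RefSeq.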

Additional observations from a re-analysis of the deposited data

Results flagged for a closer look

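The difference between Ddah1 and Npy neurons had opposite signs in different libraries for 2 complex IV genes, each with counting intervals off equality. The difference between libraries was not tested. For Cox6a2 the log2 ratio of Ddah1 to Npy neurons was 0.46 (mixed), 0.56 (anterior) and -1.20 (posterior), with 0.01 UMIs per 10000 added to both levels. The levels were 0.00660 against 0.00205 UMIs per 10000 in the mixed, 0.0599 against 0.0375 in the anterior and 0.0242 against 0.0687 in the posterior library. The added value exceeds both mixed levels, so the mixed log2 ratio understates their difference. It rested on 13 Ddah1 and 18 Npy UMIs in mixed neurons, 25 and 156 in anterior neurons, and 61 and 292 in posterior neurons, where 138 of the 292 came from 5 neurons. Without neurons holding 3 or more cardiomyocyte markers the posterior levels were 0.0247 in Ddah1 and 0.0187 UMIs per 10000 in Npy neurons, so the posterior sign turned. For Cox6a1 the log2 ratio was -0.064 (mixed), 0.081 (anterior) and 0.13 (posterior), on the same scale.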

How the results depend on the processing

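Alternatives changed the filter, scaling, tool, block, gates and libraries. Without the library block the number of members called higher in Ddah1 neurons and lower in Nos1 neurons was 0 each, against 41 and 52. With each library left out in turn it was 24 to 48 and 24 to 40. In neurons with little Malat1, added after seeing the data, 23 members were higher in Ddah1 neurons. Other alternatives stayed within 1.5 times of these counts. The number lower than in cardiomyocytes, 53 in the report, was 25 with library totals alone, 26 with no filter on low counts, 32 with a limit of 20% mitochondrial UMIs, and 25 to 55 with each library left out. With library totals alone, 62.6% of all calls in Nos1 neurons were higher, against 48.2% with TMM, against cardiomyocytes 74.1% (43.5% with relative log expression factors) against 56.3%, and against endothelial cells 42.3% against 52.4%. The members' median minus that of all genes was -0.19 for Nos1 neurons under each of TMM, relative log expression factors and library totals, and -1.23 to -1.25 for cardiomyocytes. Between regions the members' median log2 ratio was 0.14 with TMM, against 0.04, and 0 members passed 1.5-fold under every alternative. The cause of these changes was not tested. For the other 7 cell classes every alternative stayed within 1.5 times of the count. No gene named in the tests turned its direction under these alternatives, and 489 single-gene values kept their call while 18 lost it. The few UMIs of Cox8b and Cox6a2 limit what can be said of them in neurons.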
